A study of Mus musculus with 6 samples.

Results

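Eph receptors and their ligands, the ephrins, were followed in mouse lens capsules through a model of cataract surgery. The set held 10 genes of the 56940 listed in each library: the A-class receptors Epha2 (ENSMUSG00000006445), Epha4 (ENSMUSG00000026235) and Epha7 (ENSMUSG00000028289), the B-class receptors Ephb2 (ENSMUSG00000028664), Ephb3 (ENSMUSG00000005958) and Ephb4 (ENSMUSG00000029710), the A-class ephrins Efna1 (ENSMUSG00000027954) and Efna5 (ENSMUSG00000048915), and the B-class ephrins Efnb1 (ENSMUSG00000031217) and Efnb2 (ENSMUSG00000001300). They were taken by symbol, and each of the 10 symbols matched 1 Ensembl identifier. The other 12 genes of the family, 8 receptors and 4 ephrins, served as comparison.

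All animals were wildtype C57BL/6 mice, and their age is not given in the sources used here. Lens fibers were taken out of 1 eye through a cut in the anterior capsule, which leaves that capsule with its lens epithelial cells in place, and the other eye was operated on 5 days later, when both capsules were collected. Capsules taken at the operation (0 h) were compared with capsules taken 5 days after it, with 3 libraries of total RNA at each time and 5 capsules pooled in each library. The 0 h capsules therefore came from animals that had already had surgery on the first eye. The library name of replicate 3 at 5 days gives neither genotype nor time, and its group was taken from its title, which its description matches. The library name of replicate 2 at 5 days carries the number 3. Replicate 3 at 5 days also stood apart in 2 keratins of surface epithelium, Krt14 at 45.8 CPM (normalised counts, described with the results) and Krt5 at 19.9 CPM, against at most 0.318 and 0.251 CPM in the other 5 libraries. Results for the members are given with it, and without it 5 rather than 6 of the 10 were higher, Epha2 no longer passing. The labels do not say whether a 0 h pool and a 5 day pool share mice, and p-values measure the spread between these pools.

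Eph receptors are receptor tyrosine kinases that bind ephrins on the surface of a neighbouring cell. A-class ephrins are held in the membrane by a lipid anchor and B-class ephrins by a transmembrane segment, and signals run both into the cell that carries the receptor (forward) and into the cell that carries the ephrin (reverse). The outcome is often a change in adhesion, repulsion or the actin skeleton at the border between cells. In the lens, EPHA2 variants are a known cause of inherited cataract, and mice without Epha2 or Efna5 have disordered lens cells and can develop cataract.

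The upstream sequences of 4 members are shown because their transcripts mark the range of behaviour in the set: Epha2, the cataract gene with a small rise, Epha4, the receptor with the largest rise, Efna1, the ephrin with the largest rise, and Efna5, the cataract gene that was not called. Each is the 250 bases before the RefSeq transcription start in build GRCm38.p6, written 5′ to 3′ on the strand of the gene, with capitals at matches to any of 4 motifs on either strand. The motifs were the GC box GGGCGG, the AP-1 site TGANTCA, the TEAD site GGAATG and the cyclic AMP response element TGACGTCA. Epha2 lies at chr4:141300971-141301220 on the plus strand, Epha4 at chr1:77515089-77515338 on the minus strand, Efna1 (the first of its 2 RefSeq starts) at chr3:89280952-89281201 on the minus strand and Efna5 at chr17:62881318-62881567 on the minus strand.
Epha2: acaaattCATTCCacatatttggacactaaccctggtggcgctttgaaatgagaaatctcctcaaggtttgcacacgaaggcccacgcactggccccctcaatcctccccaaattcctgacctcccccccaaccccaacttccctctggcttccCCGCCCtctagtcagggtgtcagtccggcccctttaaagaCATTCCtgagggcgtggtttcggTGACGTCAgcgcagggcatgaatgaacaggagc
Epha4: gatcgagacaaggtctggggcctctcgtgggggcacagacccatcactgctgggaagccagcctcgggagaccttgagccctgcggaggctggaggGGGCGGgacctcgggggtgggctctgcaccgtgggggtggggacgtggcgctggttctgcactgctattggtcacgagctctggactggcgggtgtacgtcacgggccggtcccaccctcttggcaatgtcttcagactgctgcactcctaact
Efna1: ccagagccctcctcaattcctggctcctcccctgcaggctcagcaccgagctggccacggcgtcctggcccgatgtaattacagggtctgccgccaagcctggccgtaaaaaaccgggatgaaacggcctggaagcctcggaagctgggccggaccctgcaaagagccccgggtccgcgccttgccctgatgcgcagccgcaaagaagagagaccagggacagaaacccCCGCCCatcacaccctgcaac
Efna5: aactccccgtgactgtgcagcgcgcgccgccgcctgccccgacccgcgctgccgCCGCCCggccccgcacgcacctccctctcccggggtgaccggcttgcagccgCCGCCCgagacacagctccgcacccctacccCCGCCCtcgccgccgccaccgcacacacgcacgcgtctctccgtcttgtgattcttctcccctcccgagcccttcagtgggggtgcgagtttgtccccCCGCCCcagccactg

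All 10 members matched a RefSeq start, and their upstream windows were rich in CG dinucleotides, with 9 in Epha2 to 32 in Efna5 against a median of 6 over 32851 windows of the same length. The GC box occurred in 8 of the 10 members, and 32.7% of all windows held it. This motif contains CG itself, and the windows were not matched for base composition, so the shares are not a test of the motif. GC content ran from 55.6% in Epha2 to 74.8% in Efna5, against a median of 52.4% over all windows. Efna5 and Ephb4 had 4 copies each, and Ephb2 and Efnb1 had none. The TEAD motif occurred in Epha2, with copies that begin 243 and 56 bases before the start, and once in Efnb2, and 12.6% of all windows held it. The cyclic AMP response element occurred in Epha2 alone among the members, 33 bases before the start, and 1.55% of all windows held it. The AP-1 motif occurred in 0 of the 10 members and in 6.75% of all windows. These matches describe the letters of the windows, and binding was not measured.

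At 5 days 6 of the 10 members were higher and 0 were lower: 5 of the 6 receptors and 1 of the 4 ephrins passed the test. Epha4 and Epha7, both low at 0 h, rose most, and Efna1 was the ephrin that rose. Epha2, Ephb3 and Ephb4, the most abundant receptors of the set, rose by less than 2-fold. Ephb2, Efna5, Efnb1 and Efnb2 were not called. Calls rest on the quasi-likelihood test of edgeR, with p-values adjusted by Benjamini-Hochberg over 14676 tested genes and a threshold of 0.05, and all 10 members passed the low-count filter.

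Over all tested genes 47.6% were called, 25.1% higher and 22.5% lower. The median log2 fold change of the 10 members was 0.48, against -0.01 for all tested genes. Because the members were chosen with earlier results of these data known, their comparison with all genes is descriptive. Of the members 2 passed with a change of 2-fold or more, as did 25.4% of all tested genes in either direction. The libraries of the 2 times did not overlap for 5 of the 10 members and for 58.1% of all tested genes. The normalised counts (counts scaled to library size with TMM factors, CPM) of the 10 members summed to 555.3 to 560.0 in the 0 h libraries and to 660.8 to 687.8 in the 5 day libraries. In these bulk samples fewer cells of a type and less RNA per cell cannot be told apart.

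**Figure D1:**
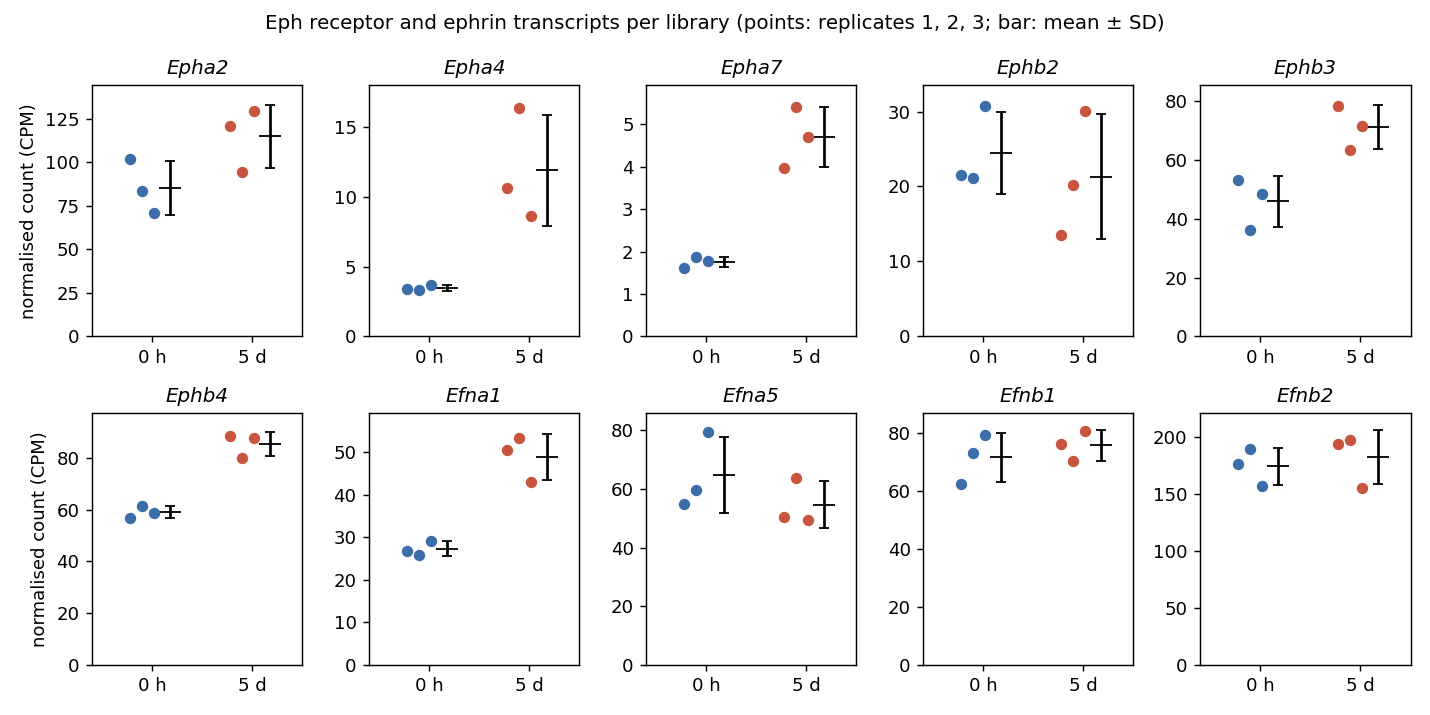
Normalised counts (CPM, vertical axes from 0) of the 10 members at 0 h and 5 days, with 1 point per library in the order of replicates 1, 2 and 3 and bars for mean ± SD. The times are separate for Epha4, Epha7, Ephb3, Ephb4 and Efna1, and overlap for Epha2, Ephb2, Efna5, Efnb1 and Efnb2.

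Among the A-class receptors, Epha4 binds ephrins of both classes and is best known for guiding axons. Its normalised counts were 3.37, 3.29 and 3.70 CPM in the 0 h libraries and 10.7, 16.3 and 8.65 CPM in the 5 day libraries. Every 5 day library stood above every 0 h library, with replicate 2 the highest. The log2 fold change was 1.78 (SE 0.30, 95% interval 1.13 to 2.42), a 3.43-fold rise with an adjusted p of 0.000349 by edgeR. These values rest on 25 to 31 counts per library at 0 h and 67 to 130 at 5 days. Without replicate 2 at 5 days the log2 fold change was 1.48, and the call held.

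Epha7, a receptor of the developing nervous system, was the lowest member. It stood at 1.62, 1.87 and 1.79 CPM at 0 h and at 3.98, 5.40 and 4.71 CPM at 5 days. The groups did not overlap, and the log2 fold change was 1.41 (SE 0.36), with an adjusted p of 0.00633 by edgeR. With 12 to 17 counts per library at 0 h and 25 to 43 at 5 days, its 95% interval was wide, from 0.63 to 2.20.

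Epha2, the receptor of the lens epithelium and fibers that is linked to cataract, was the receptor with the highest level per exon length at both times. Its normalised counts were 101.8, 83.4 and 71.2 CPM at 0 h and 121, 94.3 and 129.3 CPM at 5 days. Replicate 2 at 5 days lay below replicate 1 at 0 h, so the groups overlapped. The rise was 1.35-fold (log2 fold change 0.43, SE 0.15, adjusted p = 0.0302 by edgeR). The call depended on single libraries: dropping replicate 2 or 3 of the 0 h group, or replicate 1 or 3 of the 5 day group, gave adjusted p-values of 0.0708 to 0.143 by edgeR.

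Among the B-class receptors, Ephb4 is known as the venous receptor for ephrin-B2 and is also found in epithelia. It rose from 56.8, 61.4 and 58.8 CPM at 0 h to 88.8, 80.1 and 87.7 CPM at 5 days. The libraries of each time lay close together and the groups did not overlap. The log2 fold change was 0.53 (SE 0.10), the smallest standard error among the members, with an adjusted p of 0.000608 by edgeR. An exon of Zan overlaps Ephb4 on the opposite strand in GENCODE M21, and Zan itself had 2 to 11 counts per library.

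Ephb3, which with Ephb2 positions cells in the gut epithelium, rose from 53.2, 36.1 and 48.4 CPM to 78.3, 63.5 and 71.7 CPM. Replicate 2 was the lowest library at each time, and the groups did not overlap. The log2 fold change was 0.63 (SE 0.14, 95% interval 0.32 to 0.95), with an adjusted p of 0.00309 by edgeR. Ephb2 was the receptor that was not called. It stood at 21.6, 21.1 and 30.8 CPM at 0 h and at 13.5, 20.2 and 30.1 CPM at 5 days, a spread of more than 2-fold within the 5 day group. Its log2 fold change was -0.19 (SE 0.25), and the 95% interval from -0.74 to 0.37 leaves room for a change in either direction. Without replicate 3 at 5 days the log2 fold change of Ephb2 was -0.54 (SE 0.21), with an adjusted p of 0.0515 by edgeR.

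Efna1, a ligand of Epha2 that can also be released from the cell surface, was the ephrin that rose. Its normalised counts were 26.8, 25.9 and 29.2 CPM at 0 h and 50.6, 53.4 and 42.9 CPM at 5 days. The lowest 5 day library was well above the highest 0 h library. The log2 fold change was 0.84 (SE 0.12), a 1.79-fold rise with an adjusted p of 0.000145 by edgeR, the lowest among the members.

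Efna5, the other A-class ephrin of the set and the one linked to cataract in mice, was not called. It stood at 55.0, 59.7 and 79.4 CPM at 0 h and at 50.5, 63.9 and 49.5 CPM at 5 days. Replicate 3 at 0 h was the highest library and the groups overlapped. The log2 fold change was -0.24 (SE 0.15, 95% interval -0.57 to 0.09), with an adjusted p of 0.207 by edgeR. It was -0.08 without replicate 3 at 0 h and -0.37 without replicate 2 at 5 days, and adjusted p-values over the 14 alternatives ran from 0.0697 to 0.705. Per exon length, Efna1 was 1.08, 0.956 and 0.811 times Efna5 in the 0 h libraries and 2.21, 1.84 and 1.91 times Efna5 in the 5 day libraries, a ratio chosen after the values were seen. All 3 ratios of 5 days lay above those of 0 h.

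Both B-class ephrins were uncalled, with intervals close around 0. Efnb2, the arterial partner of Ephb4 and a carrier of reverse signals, stood at 176.7, 189.5 and 157.5 CPM at 0 h and at 194.5, 197.9 and 155.4 CPM at 5 days. Replicate 3 was the lowest library at each time. Its log2 fold change was 0.06 (SE 0.12, 95% interval -0.19 to 0.32), which excludes a rise or fall of 1.5-fold at that level of confidence. Efnb1, known for sorting cells at tissue borders, stood at 62.4, 73.1 and 79.3 CPM at 0 h and at 76.1, 70.3 and 80.8 CPM at 5 days. The groups overlapped, with a log2 fold change of 0.08 (SE 0.11, 95% interval -0.16 to 0.33).

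**Figure D2:**
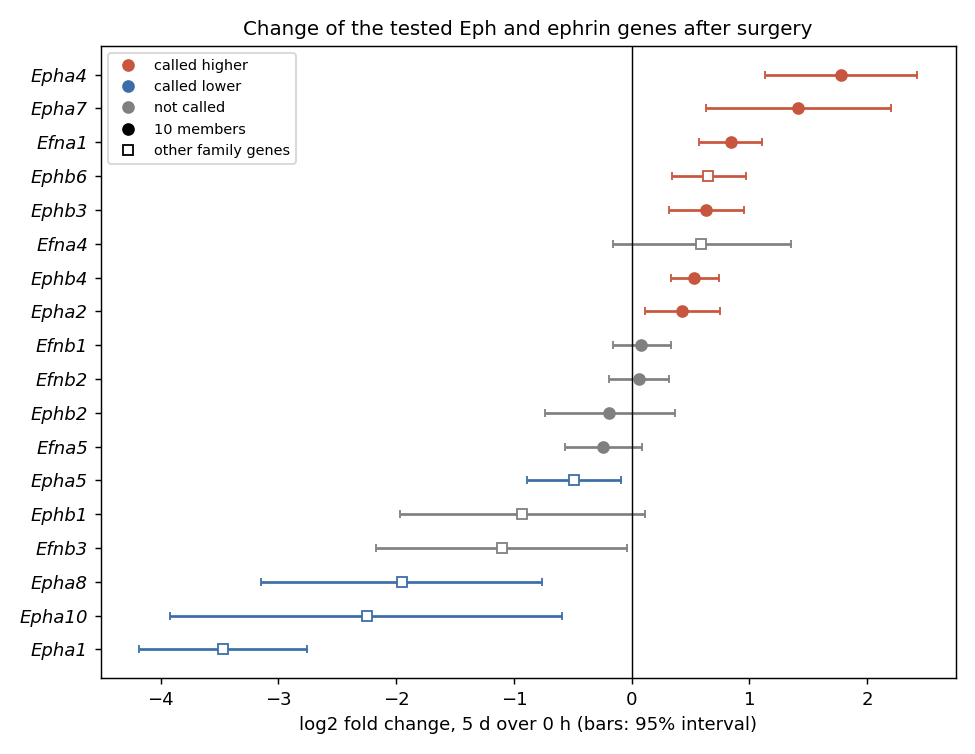
Log2 fold change of 5 days over 0 h with its 95% interval (horizontal axis) for the 18 tested genes of the family. Filled circles are the 10 members and open squares the 8 other tested genes, coloured by call. The 6 called members lie between 0.43 and 1.78, and the called fall of Epha1 reaches -3.47.

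Levels of the members were compared as CPM per kilobase of exon, with exon lengths from GENCODE M21. At 0 h the order of the means ran from Efnb2 (25.5 ± 2.35 CPM per kilobase, SD, n = 3) through Efnb1 (20.7 ± 2.48), Epha2 (18.3 ± 3.30), Efna5 (16.0 ± 3.22), Efna1 (14.9 ± 0.937), Ephb4 (12.7 ± 0.498), Ephb3 (6.91 ± 1.33), Ephb2 (1.94 ± 0.433) and Epha4 (0.429 ± 0.0267) to Epha7 (0.178 ± 0.0129). The libraries of Efnb1, Epha2, Efna5 and Efna1 overlapped from each neighbour to the next, so the order of neighbours is not resolved. Those of Efnb1 all lay above those of Efna1. At 5 days Efna1 (26.8 ± 2.96) stood level with Efnb2 (26.6 ± 3.45), followed by Epha2 (24.6 ± 3.91) and Efnb1 (21.9 ± 1.52), each overlapping the one before it. Efna1 had thus moved from the fifth place to the group of highest genes, while Efna5 (13.5 ± 2.00) stood below Ephb4 (18.4 ± 1.02) without overlap. Ephb3 (10.7 ± 1.11) followed, then Ephb2 (1.69 ± 0.662) and Epha4 (1.48 ± 0.494), whose libraries overlapped, and Epha7 (0.475 ± 0.0719) last. Despite the largest rises in the set, Epha4 and Epha7 remained well below the other called receptors. Outside the set, Ephb6 stood at 7.06 CPM per kilobase at 0 h and 11.1 at 5 days, with libraries that overlapped those of Ephb3.

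**Figure D3:**
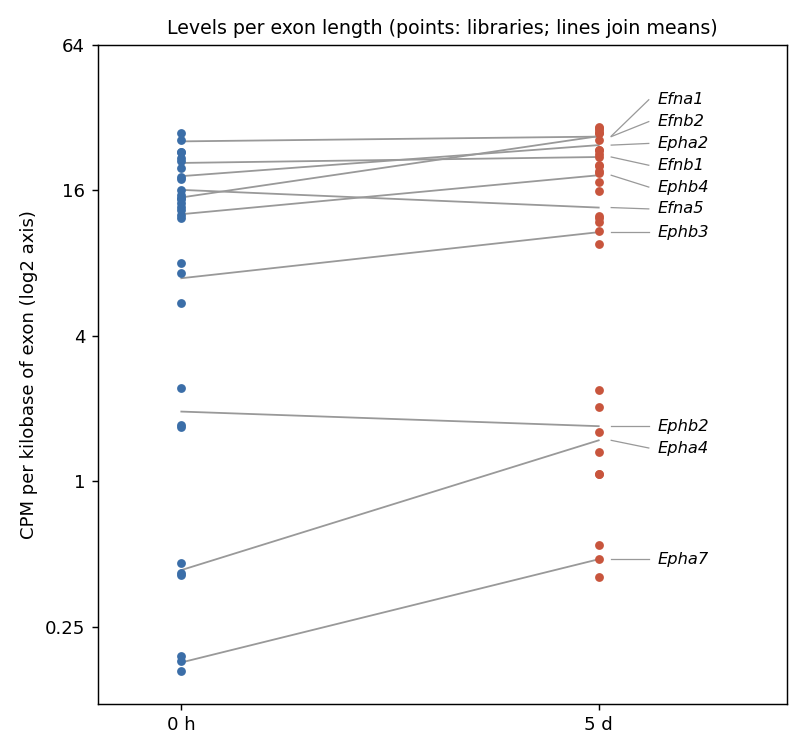
CPM per kilobase of exon (log2 axis) of the 10 members in each library, with lines joining the mean of 0 h to that of 5 days. Efna1 climbs from 14.9 to 26.8, while the means of Epha4 and Epha7 rise from the bottom of the range to 1.48 and 0.475.

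The makeup of the family does not depend on how libraries are scaled, and it was examined as each gene's percentage of all receptor or all ephrin counts. Such shares are parts of 1 total, so a rise of 1 gene lowers the shares of the others. Efna1 held 7.91 ± 0.550% of ephrin counts at 0 h and 13.2 ± 0.436% at 5 days (SD, n = 3). Efna5 held 18.7 ± 3.37% and 14.7 ± 1.41% (n = 3), and its 3 libraries of 5 days lay below those of 0 h. The level of Efna5 itself was not called. Efnb2 held 50.6 ± 5.03% and 49.1 ± 2.86% (n = 3), about the same large part at each time. Among receptor counts, Epha2 held 29.5 ± 3.72% and 30.8 ± 2.66% (n = 3), Ephb3 15.8 ± 2.37% and 19.2 ± 1.62%, and Epha4 1.20 ± 0.119% and 3.27 ± 1.37%. Epha7 went from 0.612 ± 0.0819% to 1.28 ± 0.275% (n = 3). Ephb2 went from 8.52 ± 2.17% to 5.69 ± 1.95% and Ephb4 from 20.5 ± 2.05% to 23.05 ± 1.07% (n = 3), and both overlapped between the times. In the exact two-sided permutation test of these 10 shares, the groups of Epha4, Epha7, Ephb3, Efna1 and Efna5 were separate with p = 0.1, the smallest that 3 against 3 libraries can give, and 0.2 after Benjamini-Hochberg adjustment over the 10. The differences of 3 of these 5 shares moved by over 1.5 times with 1 library. That of Efna5, -3.99 percentage points, was -2.04 without replicate 3 at 0 h, and that of Ephb3, 3.34, was 1.97 without replicate 2 at 0 h. That of Epha4, 2.07, was 1.31 without replicate 2 at 5 days.

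**Figure D4:**
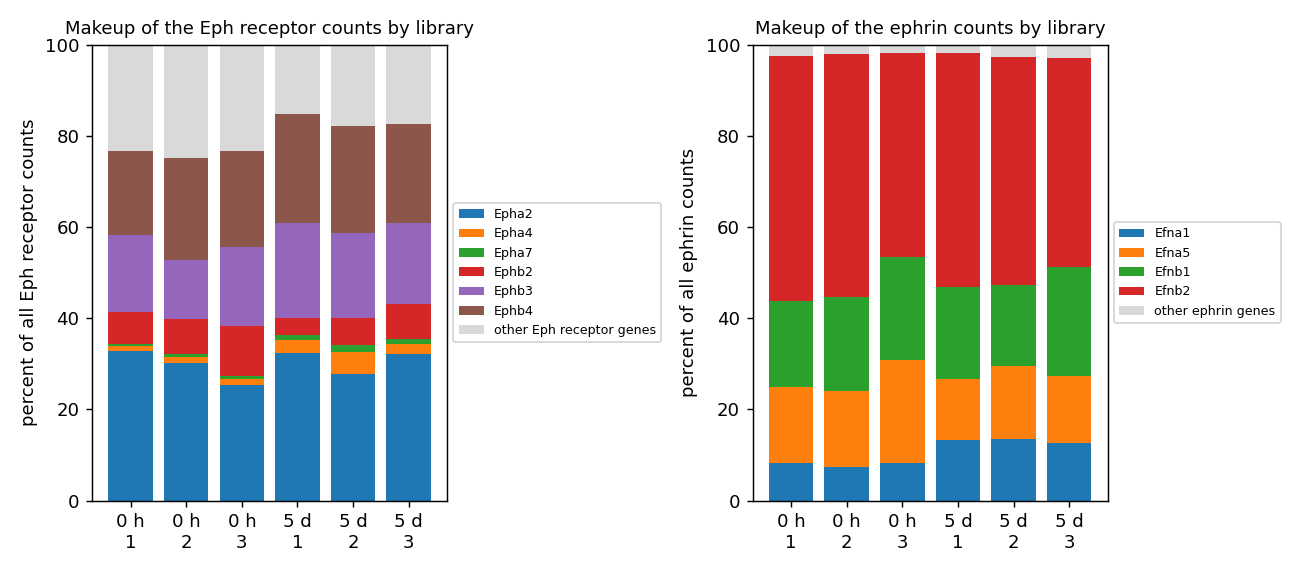
Percentage of all Eph receptor counts (left) and of all ephrin counts (right) held by each member in each library, with the other genes of the family in grey. The Efna1 band widens from between 7.28 and 8.31% at 0 h to between 12.7 and 13.5% at 5 days. Efnb2 holds between 44.8 and 53.7% at 0 h and between 45.9 and 51.4% at 5 days.

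Most of the other receptors tested did not share the direction of the members, several of them at low counts. The members had been chosen with earlier results of these data known, so this contrast is descriptive and is not a test of the family. Of the 8 other receptors 6 were tested, of which 1 rose and 4 fell, and their median log2 fold change was -1.44. Epha1, an epithelial receptor, fell from 13.3, 13.6 and 10.7 CPM at 0 h to 1.11, 1.51 and 0.766 CPM at 5 days, a log2 fold change of -3.47 (SE 0.32) with an adjusted p of 3.28e-06 by edgeR, and it was called lower under each of the 14 alternatives. Exons of Zyx overlap Epha1 on the opposite strand and had 1467 to 2961 counts per library, and the strand setting of the counting is not given, so the Epha1 level is uncertain. Ephb6, a receptor without kinase activity, rose from 31.6, 25.0 and 23.3 CPM to 42.2, 37.7 and 45.6 CPM, a log2 fold change of 0.65 (SE 0.14). Epha8 and Epha10, the latter also without kinase activity, fell from means of 1.85 and 1.65 CPM to 0.467 and 0.309 CPM. These falls rest on 10 to 23 and 11 to 16 counts per library at 0 h, and on 3 to 5 and 0 to 7 at 5 days. Over the alternatives that tested them, adjusted p-values reached 0.0545 and 0.108. Epha5, a neuronal receptor, had a log2 fold change of -0.49 (SE 0.18) with an adjusted p of 0.046 by edgeR. Its call was lost with total library size (-0.35), with DESeq2, and without any single 0 h replicate or replicate 1 at 5 days (-0.32), and adjusted p-values over the 14 alternatives ran from 0.0276 to 0.156. The count of 4 lower receptors was 1 or 2 without 5 of the 6 single libraries in turn (the exception was replicate 3 at 5 days), 2 with the stricter low-count filter and 1 with DESeq2. Ephb1 was not called, and Epha3 and Epha6 had too few counts to be tested. Of the 4 other ephrins, Efna4 and Efnb3 were tested and not called, at log2 fold changes of 0.59 (SE 0.34) and -1.10 (SE 0.49), and Efna2 and Efna3 were not tested. Without replicate 1 at 5 days Efna4 was called higher, at 0.88 with an adjusted p of 0.0326 by edgeR, and leaving out single libraries gave 0.38 to 0.88.

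Markers of the cells that a capsule can carry moved in the same comparison, in which 47.6% of all tested genes were called. Lens epithelial markers were present at both times: Foxe3, Pax6, Cryaa and the others of 9 listed were all tested, with 6 lower and 1, Pax6, higher (not called under 8 of the 14 alternatives), and their summed level ran from 77990 to 95050 CPM at 0 h and from 7835 to 22370 CPM at 5 days. Cryaa and Cryab, which lens fibers also express, made up most of these sums. The other 7 markers summed to 2546 to 2575 CPM at 0 h and to 1344 to 1840 CPM at 5 days, and Pax6 went from 651.5 ± 36.6 to 790.8 ± 55.4 CPM (SD, n = 3). Lens fiber markers were lower for 12 of 12 tested, from a sum of 68320 to 77580 CPM to one of 4090 to 13630 CPM. Macrophage markers were higher for 12 of 12, from 20.0 to 43.2 CPM summed at 0 h to 549.8 to 776 CPM at 5 days, with no Ccr2 counts at 0 h. Endothelial markers, relevant because vessels carry Ephb4 and Efnb2, were tested for 6 of 10, with 4 higher and 0 lower (8 higher with no low-count filter or with DESeq2, and 2 with the stricter filter). Their sum ran from 7.95 to 14.9 CPM at 0 h and from 31.1 to 55.7 CPM at 5 days, and Cldn5 had 0 counts at 0 h. Retinal markers, relevant to the neuronal receptors, were lower for 9 of 9 tested, from 546.7 to 827 CPM summed to 41.8 to 110.7 CPM. Of the pigmented iris and ciliary markers 6 of 8 were tested, with 1 lower (2 with no low-count filter, with the replicate block and without replicate 3 at 5 days), and of the corneal markers 2 of 6, with 2 lower (and 3 higher with no low-count filter). Sums ran from 105.4 to 127.8 CPM at 0 h and from 23.2 to 49.7 CPM at 5 days for the pigmented cells, and from 810 to 1084 CPM and from 416.5 to 642 CPM for the cornea, where Krt12 had 0 counts at 0 h. Oca2 carried the difference in the pigment sum, at 91.7, 80.3 and 85.5 CPM at 0 h and 2.705, 1.13 and 0.657 CPM at 5 days, and the other 7 genes summed to 21.6 to 42.3 CPM and to 20.5 to 49.1 CPM. Aldh3a1 carried most of the corneal sum, at 914.9 ± 143.4 and 483.5 ± 146.9 CPM (SD, n = 3). The other 5 corneal genes summed to 10.1 to 14.8 CPM at 0 h and to 4.02 to 71.0 CPM at 5 days, where the highest value belongs to replicate 3 with its Krt14 and Krt5. The genes taken out of these 3 sums were picked once their values had been seen. The part of these cells in the changes of Eph and ephrin genes was not tested.

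Partners of Eph signalling were then counted in 5 lists, where 47.6% of all tested genes were called. Downstream of the receptors, regulators and effectors of small GTPases, which turn Eph activation into changes of the actin skeleton, were higher for 15 of 27 tested and lower for 3, with a median log2 fold change of 0.28. Rock2, the kinase that drives actomyosin contraction, had the highest mean CPM over both times, not corrected for length, among those called and rose from 181.6, 188.3 and 193 CPM to 318.8, 338.3 and 326.7 CPM, a log2 fold change of 0.81 (SE 0.09). Vav1, a Rac activator of blood cells, showed the largest rise, from 0.135, 0.110 and 0.596 CPM to 22.1, 17.8 and 15.8 CPM. The summed macrophage markers rose in the same libraries, and their part in this change was not tested. Arhgef16, a guanine nucleotide exchange factor, showed the largest fall, at -3.13 (SE 0.59) on the log2 scale.

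Kinases, adaptors and phosphatases that bind the receptors were higher for 11 of 25 tested and lower for 1, with a median log2 fold change of 0.24. Sla, an adaptor of blood cells, showed the largest rise, from 0.269, 0.439 and 0 CPM to 13.5, 11.1 and 9.20 CPM, and macrophage markers rose with it as above. Ptprf, a receptor phosphatase, had the highest mean CPM over both times among those called and was the gene that fell, from 704.4 ± 38.7 to 460.5 ± 33.6 CPM (SD, n = 3), or by 0.61 (SE 0.11) on the log2 scale. The count of 1 lower was 2 with no low-count filter, with limma-voom and without replicate 1 at 0 h or any single replicate at 5 days.

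Partners of ephrin-B reverse signalling moved in either direction: 3 of 15 tested rose, 5 fell and the median log2 fold change was -0.17. Sdcbp (syntenin), a PDZ protein that binds the tail of B-class ephrins, rose from 40, 47.1 and 46.9 CPM to 89.6, 83.4 and 99.2 CPM, a log2 fold change of 1.02 (SE 0.11). Cnksr1, a scaffold protein, fell furthest, by 2.30 (SE 0.41) on the log2 scale, and the growth factor receptor Pdgfra, the called gene of highest mean CPM over both times in that list, fell from 335.4 ± 10.4 to 191.6 ± 53.9 CPM (SD, n = 3). The B-class ephrins themselves were not called.

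Proteases and ubiquitin ligases that cleave or remove these proteins were higher for 8 of 13 tested and lower for 1, with a median log2 fold change of 0.45. Mmp14, a membrane protease, had the highest mean CPM over both times among those called and rose from 11.6, 12.7 and 14.8 CPM to 275.2, 257.6 and 418.6 CPM, a log2 fold change of 4.60 (SE 0.20). Adam12 showed the largest rise, from 6.27 ± 0.891 to 199.7 ± 57.1 CPM (SD, n = 3), and replicate 3 at 5 days was the highest library for both proteases. Psenen, a subunit of the gamma-secretase complex, was the gene that fell, by 0.49 (SE 0.16) on the log2 scale. Psenen no longer passed with total library size, with no low-count filter, with DESeq2, or when replicates 1 or 2 of the 0 h group or replicate 3 of the 5 day group were dropped.

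Of the adhesion and junction partners 11 were tested, of which 1 rose and 6 fell, and their median log2 fold change was -0.74. Gja3, a connexin of lens fibers, fell from 641.8, 629.4 and 580.2 CPM at 0 h to 151.7, 165.3 and 72.4 CPM at 5 days, or by 2.25 (SE 0.24) on the log2 scale, the largest fall in the list. It fell alongside the lens fiber markers, and their part in this change was not tested. Ctnnd1 (p120 catenin), which holds cadherins at the membrane, was the gene of this list that rose, from 15.6, 17.1 and 20.2 CPM to 48.1, 44.2 and 36.6 CPM. In the list 2 genes rather than 1 were higher with total library size, with limma-voom and without replicate 2 at 5 days.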

How the data were processed

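RNA was sequenced from 6 pools of 5 lens capsules, 3 pools at each time. Per the submitters' processing notes, the authors used HISAT2, HTSeq, edgeR and build GRCm39. The deposited files hold whole-number read counts for each Ensembl gene. The strand setting, counting mode, annotation release and tool versions were not given in the sources used here. Gene counts summed to 6207387 to 9774343 per library. The 5 HTSeq summary entries (32.26 to 42.55% of reads) were left out. Symbols and exon lengths came from GENCODE M21 (build GRCm38), which named 91.23% of identifiers and left 1 listed symbol, Lim2, unmatched. No coordinates were joined across builds.

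Genes that passed the default filter of edgeR 4.0.16 (R 4.3.3) were fitted with TMM factors and its quasi-likelihood test. Intervals are at 95% from the model's standard errors. The script was tested on simulated data with far fewer changed genes than were called here, in equal numbers up and down. The alternatives were other scalings, other filters, DESeq2 1.42.0, limma-voom (limma 3.58.1), a replicate block and each library left out. Upstream sequences are from RefSeq (GRCm38.p6). Members and lists were chosen with earlier results of these data known. The named genes are all family genes and, from each list of partners, the called gene of highest mean CPM over both times (not corrected for length), of largest rise and of largest fall. A gene that this rule names is not reported here.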

Additional observations from a re-analysis of the deposited data

How the results depend on the processing

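The 6 higher and 0 lower members held under each of the 8 settings that kept all 6 libraries (DESeq2 size factors, total library size, TMM without crystallin and mitochondrial genes, both other low-count filters, DESeq2, limma-voom and the replicate block). Leaving out single libraries gave 5 to 6 higher and 0 lower. Epha2 alone among the 6 lost its call, at log2 fold changes of 0.40 and 0.30 without replicate 2 or 3 at 0 h and 0.39 and 0.32 without replicate 1 or 3 at 5 days, and it ranged from 0.30 to 0.56 over the 6 libraries left out in turn. The signs of uncalled members turned for Efnb1 (-0.02 without replicate 1 at 0 h, range -0.02 to 0.15), Efnb2 (-0.01 without replicate 3 at 0 h, range -0.01 to 0.16) and Ephb2 (0.0047 without replicate 3 at 0 h and 0.04 without replicate 1 at 5 days, range -0.54 to 0.04).

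Total library size moved all log2 fold changes up by a median of 0.13, and 62.9% of calls were then upward against 52.7% with TMM. Differences in share that turned sign were that of Epha2, 1.31 percentage points higher at 5 days, at -1.755 with the members alone as denominator and -0.718 without replicate 3 at 0 h (range -0.718 to 2.94). Efnb1, at -0.0992, became 0.833 without replicate 3 at 0 h, 0.136 without replicate 1 and 1.31 without replicate 2 at 5 days (range -1.74 to 1.31). Efnb2, at -1.49, became 0.0625 without replicate 1 at 0 h and 0.114 without replicate 3 at 5 days (range -4.39 to 0.114). The cause of these changes was not tested. The labels do not say that replicate numbers pair the pools. Deviations of same-numbered pools correlated at 0.059, -0.086 and 0.052 across genes, and those of differently numbered pools at -0.113 to 0.056. Replicates 1 and 3 of 0 h correlated best with their own number and replicate 2 did not. With 3 pools at each time, these correlations cannot decide whether the pools are paired. With the replicate block, 6 members were higher, 0 lower, and 6738 genes were called against 6984. Depth limits Epha7 and Epha4, with 12 to 31 counts per library at 0 h.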
